A study of Mus musculus with 2 samples.

Results

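The blood-brain barrier is carried here by 10 genes: Cldn5, Ocln, Tjp1 and Lsr of the endothelial junctions, the transporters Mfsd2a, Slc2a1, Abcb1a, Slco1c1 and Slco1a4, and the receptor Tfrc. They were taken by symbol, and all 10 were among the 19070 genes of both tables. Expression was measured by Visium HD, in which a fixed section is hybridised with probe pairs for each gene and the probes are counted as unique molecular identifiers (UMIs) on barcoded squares, used here as bins of 16 µm. The 2 groups were 1 coronal section of 10 µm each from male C57Bl6 mice aged 3 months, taken 3 days and 28 days after controlled cortical impact (CCI), a focal traumatic brain injury made by a piston on the exposed cortex. The labels name no transgene and no treatment besides the impact, and no uninjured brain was analysed here, so the reference is the opposite side of the same section. With 1 section per group there is no replicate check, and every interval given covers counting error only. Each bin can hold parts of several cells, and fewer cells of a type and less RNA per cell cannot be told apart. The 10 genes took 69153 of 120615873 UMIs (0.0573%) at 3 days and 43466 of 82422389 UMIs (0.0527%) at 28 days, and 37.8% and 29.7% of bins held at least 1 of them.

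Brain endothelial cells seal the vessel wall with tight junctions and, having few vesicles, move nutrients and drugs across it by dedicated carriers. Claudin-5 is the main claudin of this barrier, occludin and the angulin encoded by Lsr sit at contacts of cells, and the scaffold ZO-1, encoded by Tjp1, ties junction proteins to actin. Mfsd2a imports lysophospholipids that carry omega-3 fatty acids and restrains transcytosis, Slc2a1 (GLUT1) brings in glucose, Abcb1a (P-glycoprotein) pumps drugs back into blood, Slco1c1 and Slco1a4 carry thyroid hormone and organic anions, and the transferrin receptor encoded by Tfrc takes up iron.

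In GRCm38.p6, the RefSeq assembly that corresponds to the mm10 build in the labels, the junction genes lay at chr16:18776847-18778262 (Cldn5), chr13:100496504-100552718 (Ocln), chr7:65296165-65527850 (Tjp1) and chr7:30957770-30973469 (Lsr). The transporters lay at chr4:122946850-122961194 (Mfsd2a), chr4:119108745-119137330 (Slc2a1), chr5:8567091-8748575 (Abcb1a), chr6:141524354-141570177 (Slco1c1) and chr6:141805438-141856284 (Slco1a4), and Tfrc at chr16:32608896-32632794. All 10 are annotated as protein-coding, and both organic anion carriers lie on chromosome 6. The 250 bases before the annotated start are shown for Cldn5 and Lsr, whose lesion zone levels stood furthest above the opposite side at 3 days, and for Slco1c1 and Tfrc, which were below it at 28 days. Capitals mark matches on either strand to CTTTGA, the core bound by TCF/LEF factors of Wnt signalling. They also mark ACGTG, the core of hypoxia response elements. The remaining letters searched were CCGGAA for ETS factors, and CCAAT.
Cldn5: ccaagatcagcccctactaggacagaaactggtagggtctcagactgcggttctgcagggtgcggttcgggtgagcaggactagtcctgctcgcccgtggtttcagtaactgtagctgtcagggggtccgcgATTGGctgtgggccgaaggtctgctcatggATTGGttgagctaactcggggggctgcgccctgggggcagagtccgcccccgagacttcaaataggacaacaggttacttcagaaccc
Lsr: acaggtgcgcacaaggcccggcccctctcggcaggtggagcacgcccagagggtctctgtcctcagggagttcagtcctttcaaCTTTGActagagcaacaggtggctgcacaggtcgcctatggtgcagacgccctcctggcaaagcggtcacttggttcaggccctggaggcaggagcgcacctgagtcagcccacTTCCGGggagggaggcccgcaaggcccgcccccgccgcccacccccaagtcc
Slco1c1: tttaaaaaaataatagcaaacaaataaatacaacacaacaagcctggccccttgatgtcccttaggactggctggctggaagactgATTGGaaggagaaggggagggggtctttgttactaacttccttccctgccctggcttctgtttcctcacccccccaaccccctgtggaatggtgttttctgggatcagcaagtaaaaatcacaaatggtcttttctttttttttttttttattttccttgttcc
Tfrc: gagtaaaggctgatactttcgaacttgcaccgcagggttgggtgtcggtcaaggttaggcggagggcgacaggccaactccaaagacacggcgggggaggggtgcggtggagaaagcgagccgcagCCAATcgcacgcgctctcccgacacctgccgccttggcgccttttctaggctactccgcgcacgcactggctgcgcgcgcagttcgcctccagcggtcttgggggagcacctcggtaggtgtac

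These stretches are RefSeq sequence at chr16:18776597-18776846, + strand (Cldn5), chr7:30973470-30973719, - strand (Lsr), chr6:141524104-141524353, + strand (Slco1c1) and chr16:32608646-32608895, + strand (Tfrc), each printed in the direction of transcription. Cldn5 held 2 CCAAT matches, Slco1c1 and Tfrc 1 each, and Lsr 1 CTTTGA and 1 CCGGAA match. Over the upstream windows of all 10 genes, CCAAT was found in 5 (Cldn5, Mfsd2a, Slco1c1, Slco1a4 and Tfrc), against 34.5% of 27018 promoters of the same length. CTTTGA was found in 3 (Lsr, Mfsd2a and Abcb1a), against 14.05%, ACGTG in 2 (Mfsd2a and Slc2a1), against 16.6%, and the ETS letters CCGGAA in 2 (Ocln and Lsr), against 12.2%. The RefSeq windows lie before the start of 1 transcript of each gene. For Tjp1 this start is inside the gene, with the window at chr7:65371245-65371494, - strand, and the windows of Mfsd2a and Slco1a4 overlap the first bases of the loci given above. A match is a description of the letters and not a site of binding.

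The 3 days section held 121967 bins with a median of 836 UMIs and the 28 days section 105589 bins with a median of 596 UMIs. Bins under 100 UMIs were left out, 1.93% and 2.15% of bins. The injured side lay left of column 130 at 3 days and left of column 240 at 28 days, and was cut by the edge of the array at 3 days. Within it, the lesion zone was the area rich in phagocyte genes, 2.18 mm2 at 3 days and 3.47 mm2 at 28 days, and the mirror area was its reflection across the side column (2.18 and 3.19 mm2). The zone was shallower than the mirror area, with 607 and 937 UMIs per bin at 3 days and 528 and 642 at 28 days, so levels are given in CPM, with the UMIs of every area scaled to the same total. A vessel bin held at least 2 UMIs of 13 endothelial genes that are not among the 10 (Cdh5, Flt1, Ptprb, Tie1, Tek, Egfl7, Esam, Erg, Adgrl4, Adgrf5, Itm2a, Emcn and Pecam1), which were 10988 bins (9.19%) at 3 days and 6793 bins (6.57%) at 28 days.

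**Figure D1:**
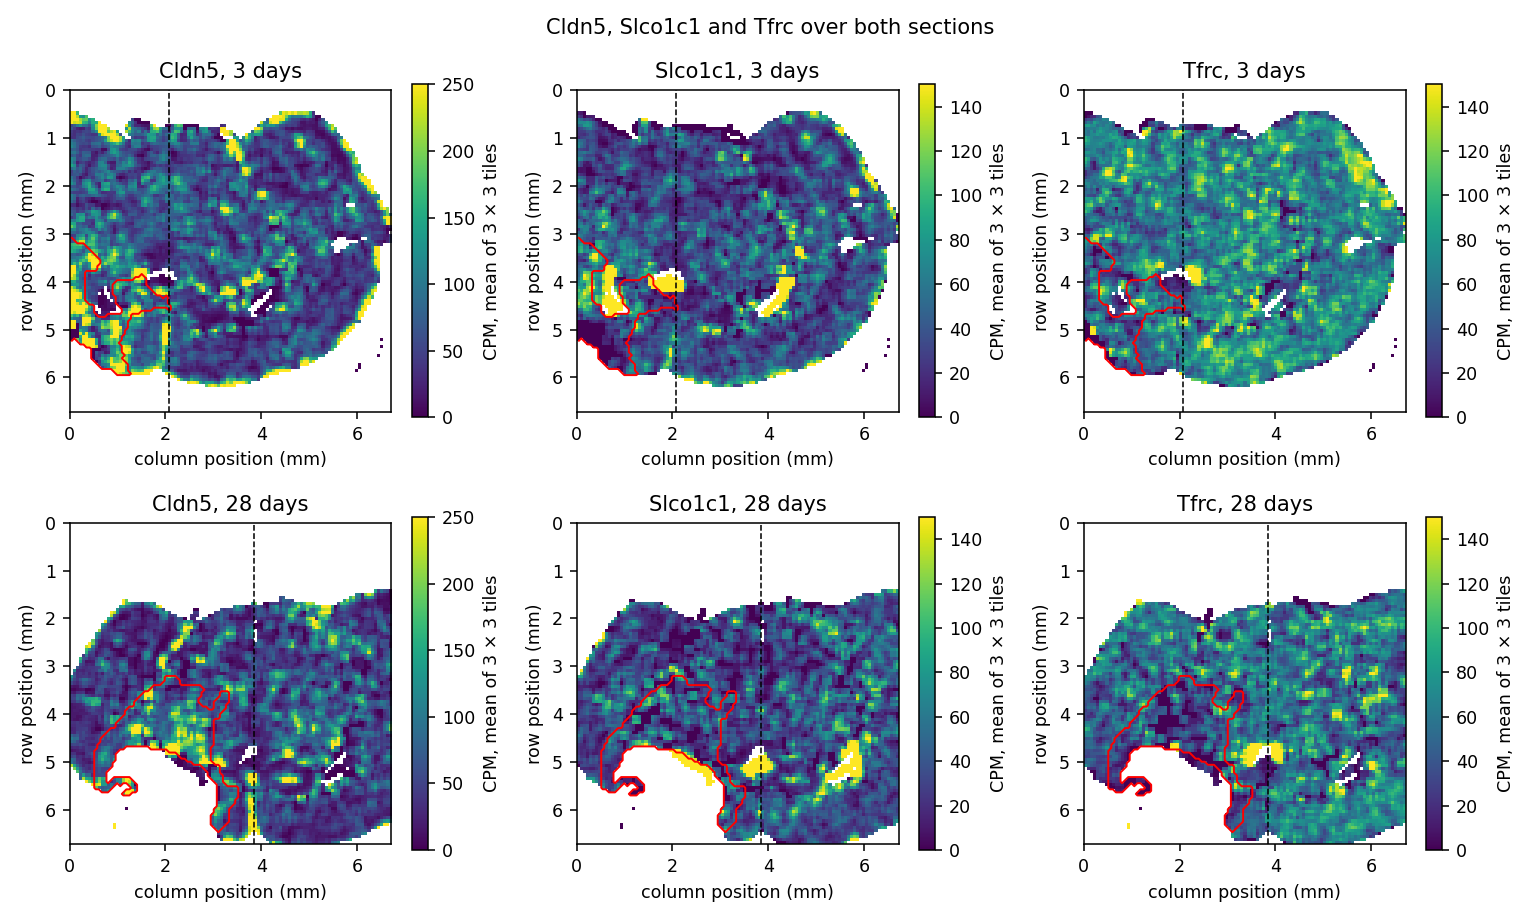
Maps of Cldn5, Slco1c1 and Tfrc (colour, CPM as a mean of 3 by 3 tiles of 64 µm, with the scale ending at 250 CPM for Cldn5 and 150 CPM for the others) over the 3 days section (top) and the 28 days section (bottom), with both axes in mm on the array. The red line is the lesion zone and the dashed line the side column. Cldn5 is bright inside the zone at 3 days, Slco1c1 is brightest in a few patches, and Tfrc is dark inside the zone.

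The first question was how far each gene marked vessels in tissue away from the lesion. On the opposite side, 7 of the 10 were at least 2-fold higher in vessel bins than in other bins in both sections, where 9.63% of the 15117 compared genes at 3 days and 7.85% of 14399 compared at 28 days passed that fold. Among the junction genes, Cldn5 and Lsr marked vessels most sharply. Cldn5 reached 280.3 CPM in vessel bins and 40.1 CPM in other bins at 3 days, and 229 and 40.2 CPM at 28 days, log2 ratios of 2.80 (95% interval 2.72 to 2.89) and 2.51 (2.38 to 2.63). Lsr reached 17.9 CPM in vessel bins and 2.84 CPM in other bins at 3 days, and 12.3 and 2.44 CPM at 28 days, log2 ratios of 2.66 (95% interval 2.33 to 2.97) and 2.35 (1.80 to 2.86). Occludin marked them less and ZO-1 hardly at all. Ocln reached 31.1 CPM in vessel bins and 8.17 CPM in other bins at 3 days, and 26.0 and 10.5 CPM at 28 days, log2 ratios of 1.93 (95% interval 1.71 to 2.15) and 1.32 (0.98 to 1.63). Tjp1 reached 303 CPM in vessel bins and 208 CPM in other bins at 3 days, and 256 and 199.5 CPM at 28 days, log2 ratios of 0.55 (95% interval 0.48 to 0.61) and 0.36 (0.26 to 0.45). Of Tjp1, 12.7% of UMIs at 3 days and 10.3% at 28 days lay in vessel bins, which held 9.04% and 8.25% of all UMIs. The bins richest in neuronal genes held 33.8 and 35.4 CPM of Cldn5, with 1302 and 1376 UMIs per bin, against 1125 and 1033 in vessel bins. Of these neuronal bins, 5.96% and 7.28% were themselves vessel bins. Of their 177 and 131 Cldn5 UMIs, 92 and 57 lay in bins without an endothelial UMI.

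The transporters split in the same way. Abcb1a and Slco1a4 followed vessels closely. Abcb1a reached 124 CPM in vessel bins and 21.0 CPM in other bins at 3 days, and 115 and 24.6 CPM at 28 days, log2 ratios of 2.56 (95% interval 2.44 to 2.68) and 2.23 (2.06 to 2.39). Slco1a4 reached 144 CPM in vessel bins and 26.2 CPM in other bins at 3 days, and 166 and 35.3 CPM at 28 days, log2 ratios of 2.46 (95% interval 2.35 to 2.56) and 2.23 (2.10 to 2.37). The glucose and thyroid hormone carriers were less restricted. Slc2a1 reached 114 CPM in vessel bins and 39.8 CPM in other bins at 3 days, and 134 and 43.3 CPM at 28 days, log2 ratios of 1.52 (95% interval 1.40 to 1.62) and 1.63 (1.48 to 1.77). Slco1c1 reached 101 CPM in vessel bins and 33.5 CPM in other bins at 3 days, and 109 and 38.7 CPM at 28 days, log2 ratios of 1.60 (95% interval 1.48 to 1.71) and 1.5011 (1.34 to 1.66). The lipid carrier and the transferrin receptor marked these bins little as sequenced. Mfsd2a reached 12.1 CPM in vessel bins and 8.95 CPM in other bins at 3 days, and 15.6 and 8.86 CPM at 28 days, log2 ratios of 0.45 (95% interval 0.11 to 0.76) and 0.82 (0.39 to 1.22). Tfrc reached 82.5 CPM in vessel bins and 75.1 CPM in other bins at 3 days, and 84.2 and 62.3 CPM at 28 days, log2 ratios of 0.14 (95% interval 0.014 to 0.26) and 0.44 (0.26 to 0.61). Vessel bins held 11.9% of Mfsd2a UMIs and 9.84% of Tfrc UMIs at 3 days, and even of Cldn5, the sharpest marker, they held 41.0% and 33.8% in the 3 and 28 days sections. On the opposite side, levels of all 10 genes thus come mostly from outside the bins called vessel. Within the lesion zone the same held except at 3 days for Cldn5 and Lsr, of which vessel bins held 52.5% and 62.0%. Bins thinned to 300 UMIs gave Tfrc a log2 ratio of -0.074 at 3 days and 0.34 at 28 days. They gave Mfsd2a 0.99 (95% interval 0.52 to 1.42) at 3 days and 1.01 (95% interval 0.40 to 1.56) at 28 days. The vessel threshold was lowered to 1 UMI there and shallower bins were left out. The effects of depth, threshold and bins left out on the vessel excess of both genes cannot be told apart.

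Several of the genes were also high in cells of the ventricles. Bins with at least 2 UMIs of choroid plexus genes (546 bins at 3 days and 595 at 28 days on the opposite side) held 401 and 432 CPM of Slco1c1, against 36.2 and 38.0 CPM in all other bins, log2 ratios of 3.47 (95% interval 3.30 to 3.64) and 3.51. Ocln was 3.35 and 3.31 higher there on the log2 scale and Lsr 1.94 and 2.99. These epithelial cells are themselves joined by tight junctions. Slco1a4 was 1.08 and 1.76 higher, and Slc2a1 1.70 and 0.69 higher. Cldn5 was lower there, at 20.1 against 62.2 CPM at 3 days and 12.0 against 56.5 CPM at 28 days. In bins with ependymal genes, the cells that line the ventricles, Ocln was 3.13 and 3.18 higher and Slc2a1 2.76 and 1.82 higher. Bins with fibroblast genes, the cells of the meninges and of larger vessel walls, had more Lsr (3.39 and 2.72) and Abcb1a (2.99 and 2.26). Of these bins, 41.9% and 37.7% were vessel bins. Without an endothelial UMI, Abcb1a was at 3.15 and 2.02 and Lsr at 3.80 at 3 days, while at 28 days Lsr had 0 UMIs in such bins. In all bins with fibroblast genes, Mfsd2a had 2 UMIs at 3 days (-2.20, 95% interval -5.57 to -0.67) and 1 UMI at 28 days (-1.39, 95% interval -7.28 to 0.51). The bins with the largest share of oligodendrocyte genes, taken as the top 5%, had more Tjp1 in CPM (log2 1.06, 95% interval 0.91 to 1.21, at 3 days and 1.19 at 28 days). Without bins holding an endothelial UMI, Tjp1 was at 1.12 and 1.24 there, Slc2a1 at 1.10 and 1.27 and Cldn5 at 0.81 and 0.80. In the bins richest in astrocyte genes and without an endothelial UMI, Slco1c1 was at 1.97 and 1.11, Abcb1a at 1.964 and 1.56 and Cldn5 at 1.4997 and 1.32 on the log2 scale, so that the excess was not particular to Slco1c1. These astrocyte bins were shallow, at 456 and 352 UMIs per bin, and the oligodendrocyte bins more so, at 213 and 211. The 4044 oligodendrocyte bins at 3 days held 384 Tjp1 UMIs, and the 80501 bins of the opposite side 17941. Per bin, Tjp1 was thus lower in the oligodendrocyte bins. The part of depth was not tested.

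**Figure D2:**
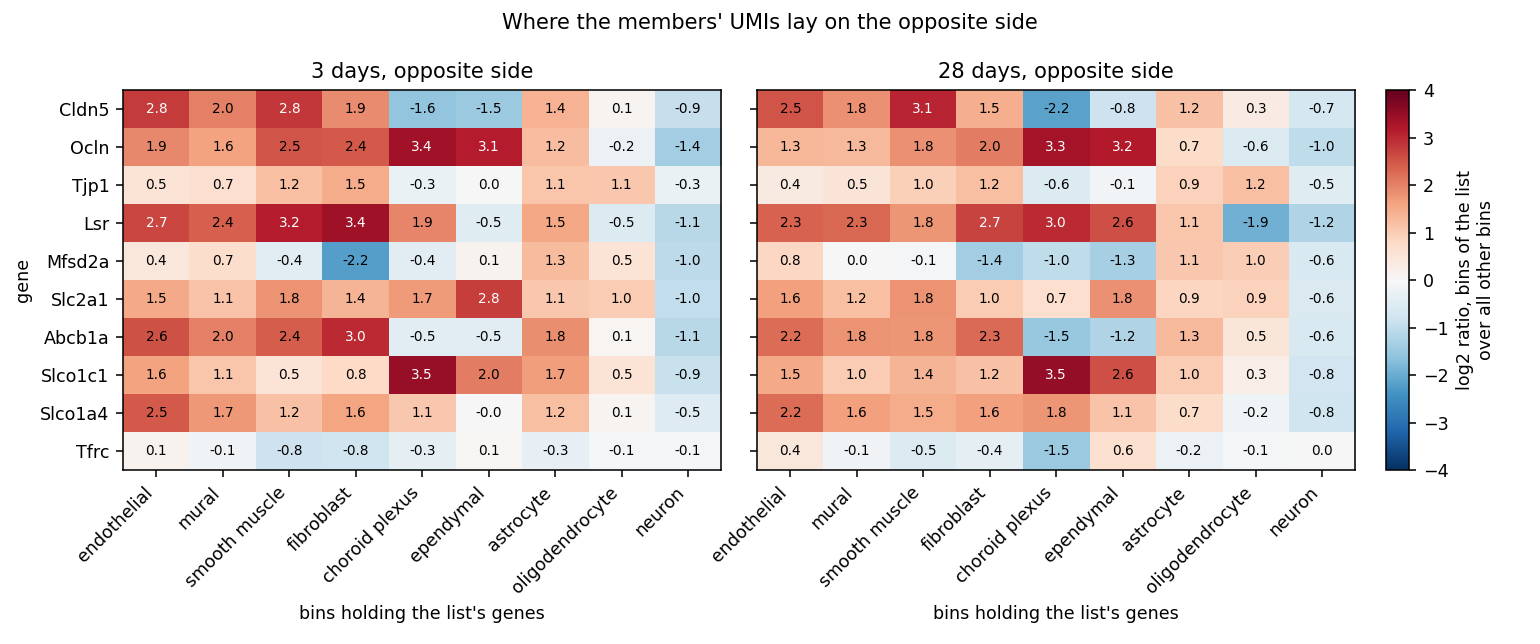
Log2 ratio of CPM between opposite side bins that hold a cell type list's genes (columns) and all other bins of that side, for each of the 10 genes (rows), at 3 days (left) and 28 days (right). Cldn5 and Slco1a4 are high with the vascular lists, Lsr and Abcb1a also with the fibroblast list, Ocln and Slco1c1 are highest with the choroid plexus list, and Tfrc is near or below 0 in most columns. The Lsr value for oligodendrocytes at 28 days rests on 0 UMIs.

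The vessel genes shared bins with each other. For each pair, the opposite side bins that held both were set against the number expected from each gene's share of bins within 20 strata of depth. For Cldn5 and Slco1a4 the ratio of observed to expected bins was 3.94 (95% interval 3.63 to 4.26, 612 bins) at 3 days and 3.48 (3.09 to 3.91, 281 bins) at 28 days. For Abcb1a and Slco1a4 it was 3.67 (95% interval 3.27 to 4.10, 306 bins) at 3 days and 3.21 (2.73 to 3.75, 158 bins) at 28 days. The highest ratio in the 28 days section was that of Ocln and Lsr, at 4.43 (95% interval 2.53 to 7.19, 16 bins) at 3 days and 5.05 (2.18 to 9.94, 8 bins) at 28 days, on few bins. Choroid plexus bins, where Ocln, Lsr and Slco1c1 were also high, were kept among the bins counted. Their part in the pair ratios was not tested. Tfrc stood apart, from 0.739 (with Mfsd2a) to 1.195 (with Abcb1a) at 3 days, and from 0.907 (with Ocln) to 1.40 (with Abcb1a) at 28 days. Tjp1 had ratios between 1.04 (with Mfsd2a) and 1.54 (with Lsr) at 3 days.

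Vessel bins on the opposite side were then divided by smooth muscle genes (Acta2, Tagln and Myh11), which mark arteries, arterioles and larger veins rather than capillaries. Vessel bins with at least 2 UMIs of these genes numbered 556 of 6660 at 3 days and 276 of 3609 at 28 days. The junction genes Cldn5, Ocln and Tjp1 were higher in them in both sections. Cldn5 was at 595 against 258 CPM at 3 days (log2 1.21, 95% interval 1.03 to 1.39) and 659.6 against 198 CPM at 28 days (1.74, 1.48 to 1.98). Ocln was at 90.9 against 26.8 CPM at 3 days (log2 1.78, 95% interval 1.27 to 2.24) and 57.4 against 23.8 CPM at 28 days (1.31, 0.34 to 2.09). Tjp1 was at 599 against 282 CPM at 3 days (log2 1.09, 95% interval 0.91 to 1.26) and 492 against 239 CPM at 28 days (1.05, 0.75 to 1.32). Lsr was at 43.5 against 16.03 CPM at 3 days (log2 1.47, 95% interval 0.71 to 2.11) and 12.3 against 12.3 CPM at 28 days (0.20, -2.34 to 1.64), the latter on 3 UMIs in muscle bins. The glucose carrier was higher in both sections, with Slc2a1 at 216 against 106 CPM at 3 days (log2 1.02, 95% interval 0.72 to 1.31) and 254 against 125 CPM at 28 days (1.03, 0.61 to 1.41). The lipid carrier Mfsd2a went the other way on very few molecules, with 2 UMIs in muscle bins and 89 in the other vessel bins at 3 days, and 1 and 57 at 28 days, and its intervals spanned 0. Tfrc was lower in muscle bins in both sections, at 49.4 against 84.9 CPM at 3 days (log2 -0.75, 95% interval -1.42 to -0.20) and 45.1 against 87.0 CPM at 28 days (-0.89, -1.97 to -0.089). The organic anion carriers were lower in muscle bins at 3 days, by intervals that excluded 0 (Slco1c1 -0.52 and Slco1a4 -0.62 on the log2 scale), while at 28 days they were at 0.35 and 0.24 with intervals that spanned 0. Abcb1a was higher in muscle bins at 3 days, at 212 against 118 CPM (log2 0.85, 95% interval 0.54 to 1.14). Its interval at 28 days spanned 0 (0.32, 95% interval -0.25 to 0.80).

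**Figure D3:**
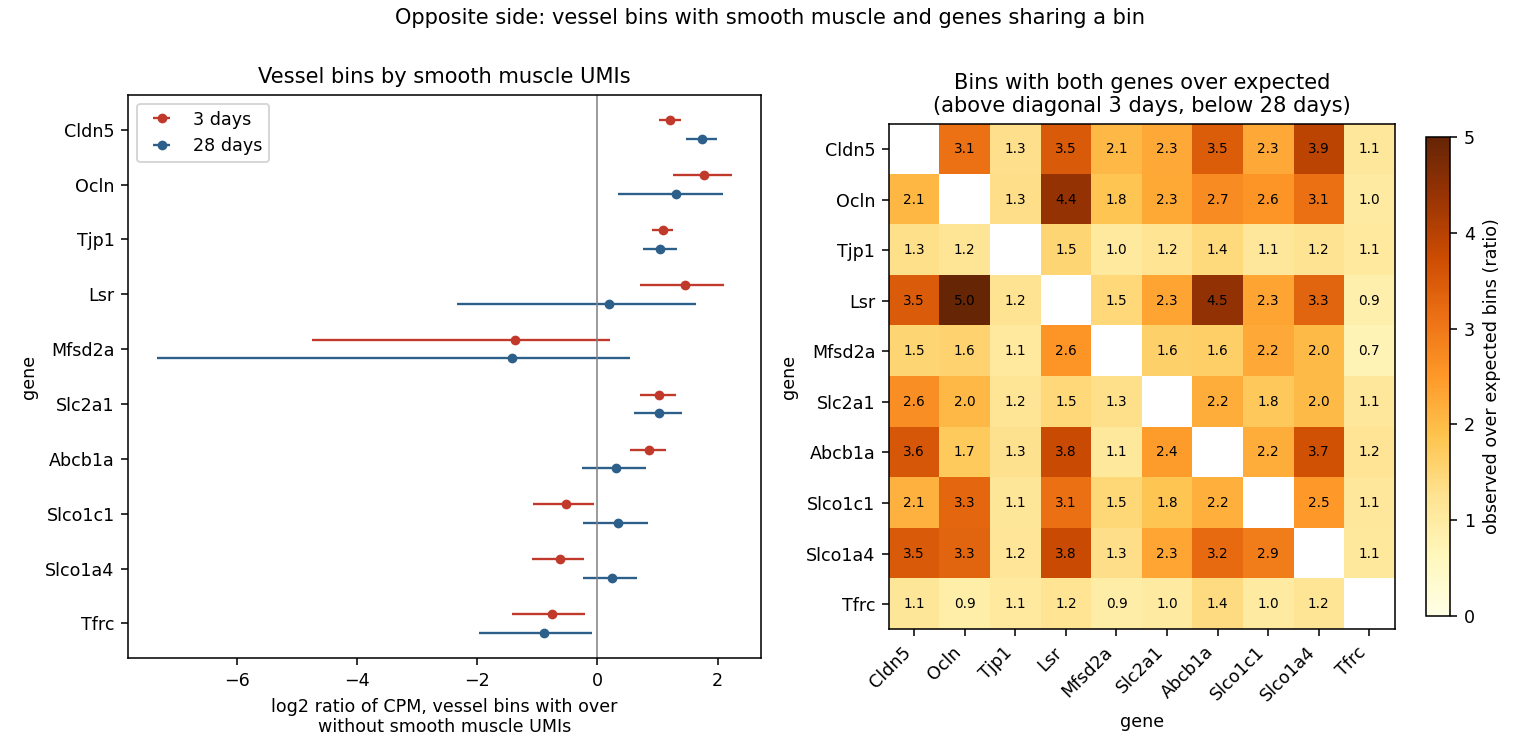
Left, log2 ratio of CPM between opposite side vessel bins with and without smooth muscle UMIs for each gene, with 95% counting intervals. Right, opposite side bins that held both genes of a pair over the number expected at their depth, above the diagonal for 3 days and below it for 28 days. Cldn5, Ocln, Tjp1 and Slc2a1 lie right of 0 in both sections, and the Tfrc row and column stay near 1.

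By the rule set for likeness, the genes whose UMIs were most concentrated in opposite side bins with at least 2 UMIs of the 10 genes, against bins with none, were mostly genes of the choroid plexus. They were led by Ttr, the thyroid hormone carrier transthyretin, at a log2 ratio of 3.30 at 3 days and 2.90 at 28 days, and the 10 leading genes of each section also held Tmem72, Mfrp, Kcnj13, Ecrg4, Kl, Calml4 and Clic6, 8 shared genes in all. Folr1 (2.94) and Slc38a5 (2.56), an amino acid carrier of the barrier, completed the list at 3 days, and Avp (2.48), the vasopressin gene, and Mgp (2.03) at 28 days. With every bin within 4 bins of choroid plexus genes left out, a choice made after these values were seen, the lists held mostly other genes. Slc38a5 stayed at 3 days, and Avp and Mgp at 28 days. At 3 days it was Slc38a5 (2.596), Sema3g, Sox17, Ccm2l, Myh11, Klf2, Ly6a, Mgp, Foxc1 and Clec2d (1.71). At 28 days it was Avp (2.58), Mgp, Ptprb, Klf2, Acta2, Tagln, Myh11, Myl9, Fn1 and Adgrl4 (1.58).

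Regions of the opposite side were given to tiles by marker genes. Among the named regions, 8 of the 10 genes were highest in CPM in white matter and lowest in cortex or hippocampus in both sections, the exceptions being Mfsd2a and Tfrc. The share of all genes with this order was not counted. Tiles given to no region held 30995 bins at 3 days and 19873 at 28 days. They were above white matter for Lsr (5.80 against 3.92 CPM and 4.57 against 3.79 CPM, on 15 and 10 UMIs in white matter). The same held for Ocln at 3 days (12.85 against 12.56 CPM) and Slco1c1 at 28 days (56.4 against 55.0 CPM). Cldn5 had 49.3 CPM in cortex, 48.5 in hippocampus, 69.5 in thalamus and 104.6 in white matter at 3 days, and 41.9, 44.2, 72.2 and 86.1 CPM at 28 days. Slc2a1 had 32.4 CPM in cortex, 37.8 in hippocampus, 52.6 in thalamus and 98.4 in white matter at 3 days, and 35.5, 38.4, 58.2 and 105.1 CPM at 28 days. Abcb1a and Slco1a4 followed the same order of white matter, thalamus and cortex in both sections. Tfrc did not, with 76.4 CPM in cortex, 76.9 in hippocampus, 69.2 in thalamus and 66.4 in white matter at 3 days, and 68.3, 74.1, 60.2 and 61.1 CPM at 28 days. Mfsd2a was about as high in thalamus (14.6 and 13.5 CPM) as in white matter (13.9 and 14.04 CPM). White matter held few UMIs, 336 and 307 per bin against 1261 and 1306 in cortex. It had the smallest share of vessel bins among the named regions, 3.43% and 2.91% against 7.52% and 8.61% in cortex. At 3 days its 11372 bins held 400 Cldn5 UMIs and the 17243 bins of cortex 1072. Per bin, Cldn5 was thus lower in white matter than in cortex, and the order above holds for CPM. In CPM the endothelial list was also higher in white matter, at 555 and 541 CPM against 305 and 324 CPM in cortex. Its part and that of depth in the order were not tested.

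Next, the lesion zone was set against the mirror area. At 3 days, 8 of the 10 genes were higher in the zone by an interval that excluded 0, as were 40.2% of all genes, and 1 of 10 (Tfrc) was lower, as were 27.4%. Cldn5, Lsr and Mfsd2a passed 2-fold, 3 of 10 where 17.5% of 13570 genes did. At 28 days 7 were higher and 2 lower (Slco1c1 and Tfrc) in the same way, beside 33.2% and 33.5% of all genes, and 0 of 10 passed 2-fold upwards where 16.5% of 13619 genes did. Downwards 0 of 10 passed 2-fold in either section, against 8.57% and 8.16% of genes. The median log2 ratio of the 10 genes was 0.75 at 3 days and 0.54 at 28 days, beside 0.14 and 0.00014 over all genes. Per mm2 of tissue, instead of in CPM, the medians were 0.12 and 0.26.

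Of the junction genes, Cldn5 was at 169.5 CPM within the zone (877 UMIs, 95% interval 158 to 181) and 52.7 CPM in the mirror area (420 UMIs, 47.8 to 58.0) at 3 days. At 28 days it was at 110.4 CPM within the zone (790 UMIs, 95% interval 103 to 118) and 74.7 CPM in the mirror area (597 UMIs, 68.9 to 81.0). The zone was higher in both sections, with log2 ratios of 1.68 (95% interval 1.52 to 1.86) and 0.56 (0.41 to 0.72), and the excess was smaller at the later time. Lsr, the angulin, was at 15.3 CPM within the zone (79 UMIs, 95% interval 12.1 to 19.0) and 3.01 CPM in the mirror area (24 UMIs, 1.93 to 4.48) at 3 days and at 6.01 CPM within the zone (43 UMIs, 95% interval 4.35 to 8.09) and 3.51 CPM in the mirror area (28 UMIs, 2.33 to 5.07) at 28 days. It had the largest ratio of the 10 at 3 days on few UMIs, with log2 ratios of 2.32 (95% interval 1.67 to 3.07) and 0.77 (0.058 to 1.52). The ratio of ZO-1 was smaller than both at either time, and that of occludin at 3 days, while at 28 days occludin was above Cldn5 and near Lsr. Ocln was at 17.6 CPM within the zone (91 UMIs, 95% interval 14.2 to 21.6) and 12.7 CPM in the mirror area (101 UMIs, 10.3 to 15.4) at 3 days and at 18.4 CPM within the zone (132 UMIs, 95% interval 15.4 to 21.9) and 11.02 CPM in the mirror area (88 UMIs, 8.84 to 13.6) at 28 days, log2 ratios of 0.47 (95% interval 0.047 to 0.90) and 0.74 (0.34 to 1.15). Tjp1 was at 416 CPM within the zone (2150 UMIs, 95% interval 398 to 434) and 234 CPM in the mirror area (1863 UMIs, 223 to 245) at 3 days and at 344 CPM within the zone (2463 UMIs, 95% interval 331 to 358) and 239 CPM in the mirror area (1911 UMIs, 229 to 250.2) at 28 days, log2 ratios of 0.83 (95% interval 0.74 to 0.92) and 0.52 (0.44 to 0.61). All 4 junction genes were thus higher in the zone in CPM at both times, while per mm2 the Ocln ratio at 3 days turned to -0.15. Without bins near choroid plexus, and with the zone and mirror area drawn anew from the rest, 2 of these intervals spanned 0. They were those of Ocln at 3 days (0.44, 95% interval -0.099 to 0.96) and Lsr at 28 days (0.70, 95% interval -0.089 to 1.53).

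Of the transporters, Mfsd2a was at 30.0 CPM within the zone (155 UMIs, 95% interval 25.4 to 35.1) and 9.67 CPM in the mirror area (77 UMIs, 7.63 to 12.1) at 3 days and at 13.0 CPM within the zone (93 UMIs, 95% interval 10.5 to 15.9) and 11.3 CPM in the mirror area (90 UMIs, 9.06 to 13.8) at 28 days. It was higher in the zone at 3 days, while the interval at 28 days spanned 0, with log2 ratios of 1.63 (95% interval 1.23 to 2.05) and 0.21 (-0.23 to 0.64). Slc2a1 was at 95.7 CPM within the zone (495 UMIs, 95% interval 87.4 to 104.5) and 50.8 CPM in the mirror area (405 UMIs, 46.0 to 56.1) at 3 days and at 87.7 CPM within the zone (628 UMIs, 95% interval 81.0 to 94.9) and 61.2 CPM in the mirror area (489 UMIs, 55.9 to 66.9) at 28 days, higher at both times with log2 ratios of 0.91 (95% interval 0.72 to 1.11) and 0.52 (0.35 to 0.69). Abcb1a was at 36.1 CPM within the zone (187 UMIs, 95% interval 31.2 to 41.7) and 22.9 CPM in the mirror area (182 UMIs, 19.7 to 26.4) at 3 days and at 52.8 CPM within the zone (378 UMIs, 95% interval 47.6 to 58.4) and 30.8 CPM in the mirror area (246 UMIs, 27.1 to 34.9) at 28 days. This drug pump was higher at both times, in CPM, with log2 ratios of 0.66 (95% interval 0.36 to 0.96) and 0.78 (0.54 to 1.02), while per mm2 the ratios were 0.035 and 0.50. The reading of Abcb1a carries a limit, since its close copy Abcb1b was measured by other probes whose cross-reaction is not known here.

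The organic anion carriers are close relatives, with further copies in the mouse genome whose cross-reaction is likewise not known, and their values differed. Slco1c1 was at 50.6 CPM within the zone (262 UMIs, 95% interval 44.7 to 57.2) and 41.7 CPM in the mirror area (332 UMIs, 37.3 to 46.4) at 3 days and at 37.0 CPM within the zone (265 UMIs, 95% interval 32.7 to 41.8) and 47.3 CPM in the mirror area (378 UMIs, 42.7 to 52.3) at 28 days, log2 ratios of 0.28 (95% interval 0.042 to 0.52) and -0.35 (-0.59 to -0.12). It was slightly higher in the zone in the first section and lower in the second. Slco1a4 was at 45.2 CPM within the zone (234 UMIs, 95% interval 39.6 to 51.4) and 38.4 CPM in the mirror area (306 UMIs, 34.2 to 43.0) at 3 days and at 70.8 CPM within the zone (507 UMIs, 95% interval 64.8 to 77.3) and 48.3 CPM in the mirror area (386 UMIs, 43.6 to 53.4) at 28 days, log2 ratios of 0.24 (95% interval -0.016 to 0.49) and 0.55 (0.36 to 0.75), so that it was higher at 28 days and its interval at 3 days spanned 0. Per mm2 the ratios at 3 days were -0.34 for Slco1c1 and -0.39 for Slco1a4. The mirror area held more choroid plexus bins (138 bins against 84 in the zone at 3 days). Without bins near choroid plexus, and with the zone drawn anew from the rest, Slco1c1 stood at 0.59 (95% interval 0.30 to 0.87) at 3 days and -0.26 (95% interval -0.51 to -0.0093) at 28 days. In CPM, the iron receptor was the only one of the 10 below the mirror area in both sections, while per mm2 Slco1c1 was too (-0.34 and -0.64). Tfrc was at 49.9 CPM within the zone (258 UMIs, 95% interval 44.0 to 56.3) and 78.5 CPM in the mirror area (625 UMIs, 72.4 to 84.9) at 3 days and at 32.0 CPM within the zone (229 UMIs, 95% interval 28.0 to 36.4) and 59.6 CPM in the mirror area (476 UMIs, 54.4 to 65.2) at 28 days, log2 ratios of -0.65 (95% interval -0.87 to -0.44) and -0.90 (-1.13 to -0.67). The neuronal list, in whose bins Tfrc was as frequent as elsewhere, was lower in the zone with all 5 of its genes, by log2 ratios of -1.98 and -1.45, and its part in the Tfrc values was not tested.

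**Figure D4:**
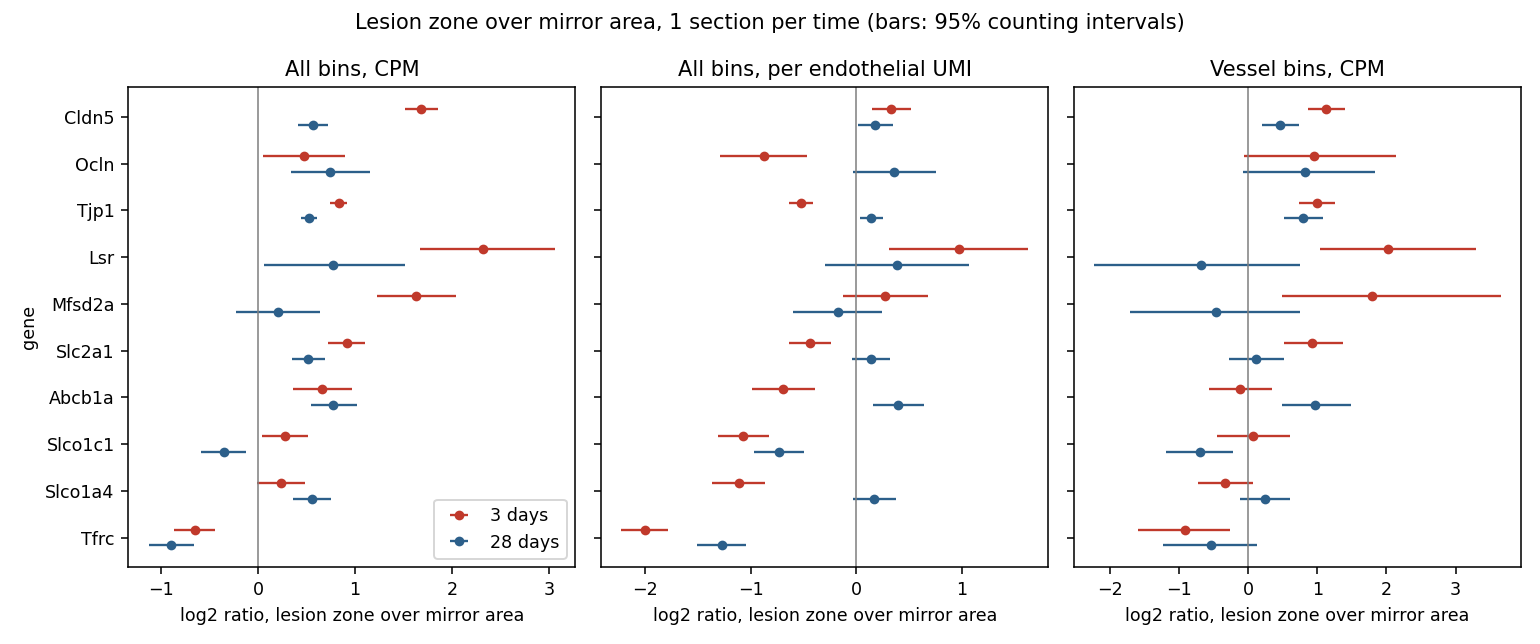
Log2 ratio of the lesion zone over the mirror area for each of the 10 genes at 3 days (red) and 28 days (blue), with 95% counting intervals: from CPM over all bins (left), per endothelial UMI over all bins (middle) and from CPM in vessel bins (right). The left panel has 8 genes right of 0 at 3 days with intervals that exclude it, the middle panel has Cldn5, Lsr and Mfsd2a right of 0 at 3 days and the others left of it, and Tfrc lies left of 0 in all panels.

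Other vascular and tissue genes moved with these ratios. All 13 endothelial genes were higher in the zone at 3 days by an interval that excluded 0, and 8 of the 13 at 28 days, and their sum was at 843 against 331 CPM at 3 days (log2 1.35) and 563 against 433 CPM at 28 days (0.38). Vessel bins were 10.2% of the zone (Clopper-Pearson 95% interval 9.52 to 10.8) and 6.14% of the mirror area (5.64 to 6.67) at 3 days, and 5.80% (5.41 to 6.20) and 5.41% (5.02 to 5.83) at 28 days. Neighbouring bins are not independent, so these intervals are nominal. The smooth muscle list was 3.28 and 1.01 higher on the log2 scale with all 3 genes above 0, the fibroblast list 2.36 and 2.55 with all 5 genes above 0, and the mural list 0.87 (5 of 6 genes above 0) and 0.53 (6 of 6). The astrocyte list was 0.91 (4 of 6 genes above 0) and 2.05 (6 of 6), the ependymal list 0.44 (3 of 4) and 2.13 (4 of 4), and the oligodendrocyte list 1.37 (5 of 5) and 0.012 (2 of 5). Red cell genes were 5.25 higher at 3 days with 3 of 4 genes above 0, and 0.59 at 28 days. The phagocyte list, which chose the zone, was 2.94 and 5.07, the microglia list 1.35 and 2.62 and the monocyte list 4.95 and 3.74 higher, with every gene of these lists above 0. The choroid plexus list was lower, at -0.93 (0 of 9 genes above 0) and -0.60 (1 of 9). The part of each in the values of the 10 genes was not tested.

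Set against the endothelial genes rather than all UMIs, the 10 genes divided at 3 days. Cldn5 had 20.1 UMIs per 100 endothelial UMIs in the zone and 15.9 in the mirror area (log2 0.33, 95% interval 0.15 to 0.52) and Lsr 1.81 UMIs per 100 endothelial UMIs in the zone and 0.911 in the mirror area (log2 0.97, 95% interval 0.31 to 1.63), so both were higher relative to the endothelial list as well. Mfsd2a differed by less than its interval, at 0.28 (-0.12 to 0.68). The other genes were lower. The share of all genes lower on this scale was not counted at either time. From CPM at 3 days, the median log2 ratio of zone over mirror area was 0.14 over all genes, and the endothelial list stood at 1.35. Among the vessel carriers, Slco1a4 had 5.36 UMIs per 100 endothelial UMIs in the zone and 11.6 in the mirror area (log2 -1.11, 95% interval -1.37 to -0.86). Slco1c1 had 6.01 UMIs per 100 endothelial UMIs in the zone and 12.6 in the mirror area (log2 -1.07, 95% interval -1.31 to -0.83). Abcb1a had 4.29 UMIs per 100 endothelial UMIs in the zone and 6.91 in the mirror area (log2 -0.69, 95% interval -0.99 to -0.39). Slc2a1 was at -0.44, Ocln at -0.88, Tjp1 at -0.52 and Tfrc at -2.00 on the same scale. Away from choroid plexus the values were -1.12 for Slco1a4, -0.77 for Slco1c1, -0.76 for Abcb1a and -0.93 for Ocln. The endothelial genes themselves were unequal at 3 days, from 0.72 (Flt1) to 2.73 (Cdh5) in log2 zone over mirror.

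At 28 days fewer genes stood apart from the endothelial list. Abcb1a had 9.37 UMIs per 100 endothelial UMIs in the zone and 7.11 in the mirror area (log2 0.40, 95% interval 0.16 to 0.64), and Cldn5 (0.18) and Tjp1 (0.14) were also higher by intervals that excluded 0. Slco1c1 remained lower, with 6.57 UMIs per 100 endothelial UMIs in the zone and 10.9 in the mirror area (log2 -0.73, 95% interval -0.97 to -0.50). Tfrc remained lower, with 5.68 UMIs per 100 endothelial UMIs in the zone and 13.8 in the mirror area (log2 -1.28, 95% interval -1.51 to -1.04). The intervals of Ocln, Lsr, Mfsd2a, Slc2a1 and Slco1a4 spanned 0, with values from -0.17 (Mfsd2a) to 0.39 (Lsr). Away from choroid plexus the interval of Tjp1 spanned 0 (0.091, 95% interval -0.023 to 0.20) and that of Slco1a4 excluded it (0.23, 95% interval 0.020 to 0.45).

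Within vessel bins alone, 3 of 10 genes (Cldn5, Lsr and Mfsd2a) were at least 2-fold higher in the zone at 3 days, where 14.6% of 10381 genes were, and 0 of 9 at 28 days, where 14.1% of 9957 were. Downwards 0 passed in either section, against 9.45% and 14.1%. Cldn5 had 53.2 UMIs per 100 vessel bins of the zone and 31.4 per 100 of the mirror area at 3 days (log2 ratio of CPM 1.13, 95% interval 0.87 to 1.40), and 38.7 UMIs per 100 vessel bins of the zone and 27.6 per 100 of the mirror area at 28 days (0.46, 95% interval 0.20 to 0.74). A Cldn5 UMI was found in 32.7% of the zone's vessel bins and 22.2% of the mirror area's at 3 days. Lsr had 49 UMIs in the zone's vessel bins and 9 in the mirror area's (2.02, 95% interval 1.05 to 3.30), and at 28 days its 8 and 11 UMIs were too few to compare. Mfsd2a rested on 24 and 5 UMIs at 3 days (1.80, 95% interval 0.49 to 3.65) and was at -0.46 (95% interval -1.71 to 0.75) at 28 days. Ocln was at 0.95 (95% interval -0.060 to 2.15) on 28 and 11 UMIs at 3 days and 0.82 (95% interval -0.077 to 1.84) at 28 days, both spanning 0. Tjp1 was at 0.99 and 0.80 and Slc2a1 at 0.93 and 0.12 in the respective sections.

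The drug pump and the organic anion carriers behaved otherwise in vessel bins. Abcb1a had 10.5 UMIs per 100 vessel bins of the zone and 14.8 per 100 of the mirror area at 3 days (-0.12, 95% interval -0.57 to 0.34), which the interval does not separate, and 15.1 UMIs per 100 vessel bins of the zone and 7.57 per 100 of the mirror area at 28 days (0.97, 95% interval 0.49 to 1.48), where the zone was higher. Slco1c1 was not separated at 3 days (0.074, 95% interval -0.45 to 0.61) and was lower in the zone at 28 days, with 8.14 UMIs per 100 vessel bins of the zone and 13.1 per 100 of the mirror area (-0.70, 95% interval -1.19 to -0.22). Slco1a4 was at -0.33 (95% interval -0.73 to 0.068) at 3 days and 0.24 (95% interval -0.12 to 0.61) at 28 days. Tfrc was lower at 3 days as sequenced (-0.91, 95% interval -1.59 to -0.26), and its interval at 28 days spanned 0 (-0.54, 95% interval -1.23 to 0.14). Vessel bins of the zone were shallower at 3 days, with 865 UMIs per bin against 1119 in the mirror area, and at 28 days held 835 against 822. In CPM the endothelial list, which chose these bins, was 0.74 and 0.14 higher in the zone's vessel bins on the log2 scale, the smooth muscle list 2.05 and 0.80 and the fibroblast list 1.76 and 3.01. The astrocyte list was 0.56 and 2.07 higher there and the phagocyte list, which chose the zone, 2.53 and 5.26, while the neuronal list was at -2.03 and -2.04. The choroid plexus list was lower there, at -1.98 and -2.23, and the part of these lists in the values was not tested. Over 19 alternatives, some of which left out choroid plexus bins, Slco1c1 ranged from -1.07 to 0.54 at 3 days. At 28 days it ranged from -1.09 to -0.16. In bins thinned to 300 UMIs, with a vessel bin then holding at least 1 endothelial UMI, 7 of the genes kept enough UMIs at 3 days, and their median was 0.049, beside 0.074 for the same 7 genes as sequenced. At 28 days the median of 8 genes was 0.16, beside 0.35 for the same genes as sequenced. Shallower bins had to be left out, 1664 in the zone and 1542 in the mirror area at 3 days and 4404 and 3266 at 28 days. With the remaining bins Cldn5 was at 0.80 (95% interval 0.40 to 1.24) at 3 days and 0.085 (95% interval -0.28 to 0.45) at 28 days. Tjp1 was at 0.59 (95% interval 0.22 to 0.98) at 3 days and 0.22 (95% interval -0.13 to 0.58) at 28 days. Abcb1a at 28 days was at 0.68 (95% interval -0.026 to 1.45), so that its interval spanned 0 where that as sequenced (0.97, 95% interval 0.49 to 1.48) did not, and Slco1c1 at 28 days was at -0.88 (95% interval -1.63 to -0.17). At 3 days Slc2a1 was at -0.047 (95% interval -0.69 to 0.63) and Tfrc at 0.21 (95% interval -0.89 to 1.45), so that both changed sign from the values as sequenced. Depth, the vessel threshold and the bins left out changed together here and cannot be told apart.

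Distance from the lesion was then followed from the core of the zone, through its rim of 8 bins, to bands outside it, each against the same place on the opposite side. Cldn5 declined outwards at 3 days as far as 2000 µm. Its log2 ratio was 2.06 in the core, 1.19 in the rim, 0.82 within 250 µm, 0.41 from 250 to 500 µm, 0.030 from 500 to 1000 µm and 0.0022 from 1000 to 2000 µm. At 28 days the values in that order were 0.59, 0.50, 0.14, 0.41, -0.19 and -0.26. The share of vessel bins at 3 days did not follow it step by step, with log2 ratios of 0.97 in the core, 0.38 in the rim, 0.94 within 250 µm, 0.72, 0.34 and 0.060 in the next bands and 0.34 beyond 2000 µm, where Cldn5 was at 0.20. Tfrc was furthest below the opposite side in the core and nearest to it from 1000 to 2000 µm, but did not climb at every step. From the core through the rim and outward its log2 ratios ran -0.75, -0.52, -0.70, -0.48, -0.36 and -0.048 at 3 days and -1.25, -0.39, -0.45, -0.062, -0.24 and -0.033 at 28 days. Abcb1a was highest in the core, at 1.01 and 0.88, against 0.28 and 0.58 in the rim.

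In the band within 250 µm of the zone, 3 of 10 genes passed 2-fold upwards at 3 days (Slco1c1, Ocln and Lsr), where 14.1% of genes did, and 1 of 10 (Lsr, at 1.10) at 28 days, where 6.88% did. Downwards 0 of 10 passed, against 3.88% and 0.582%. Slco1c1 was at 145 against 40.1 CPM at 3 days (log2 1.85, 95% interval 1.67 to 2.04) and 72.0 against 41.3 CPM at 28 days (0.80). Ocln was at 1.84 (95% interval 1.46 to 2.24) and 0.91. This band contained choroid plexus, which its mirrored band largely lacked. The choroid plexus list stood at 1807 against 86.8 CPM at 3 days and 720.2 against 90.0 CPM at 28 days, log2 ratios of 4.38 and 3.00 with all 9 genes higher. The ependymal list was also higher there (2.65 and 1.19, all 4 genes), as was the fibroblast list (1.81 and 1.37, all 5 genes), and their part was not tested. In an alternative added after the choroid plexus values were seen, bins within 4 bins (64 µm) of choroid plexus genes were left out. The zone, mirror area and bands were then drawn anew from the remaining bins. Slco1c1 in this setting stood at 0.61 (95% interval 0.34 to 0.88) at 3 days and -0.21 (95% interval -0.47 to 0.048) at 28 days. Ocln stood at 1.09 (95% interval 0.52 to 1.66) and 0.035, and Lsr at 0.86 and 0.60. Cldn5, lower in choroid plexus bins than elsewhere, stood at 1.14 (95% interval 0.95 to 1.32) and -0.023. The ratios of Slco1c1 and Ocln next to the lesion were thus smaller in this setting in both sections. That of Cldn5 was larger at 3 days, against 0.82 with all bins, and smaller at 28 days, against 0.14 with all bins. The bins left out and the redrawn areas changed together here and cannot be told apart.

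**Figure D5:**
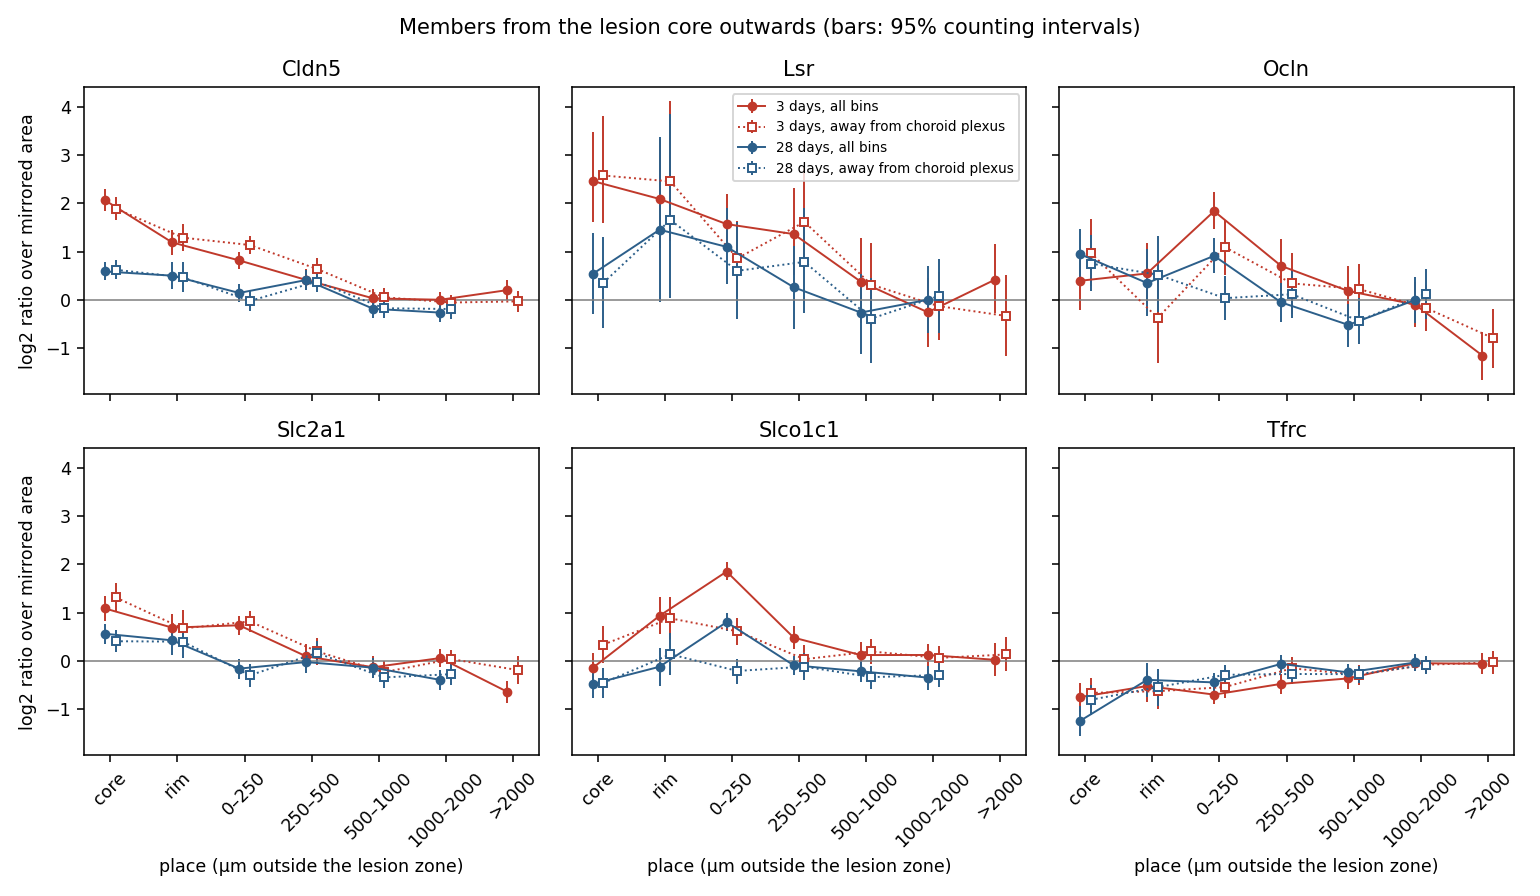
Log2 ratio over the mirrored place for 6 of the genes from the lesion core and rim to bands outside the zone (horizontal axis, µm), at 3 days (red) and 28 days (blue), for all bins (filled, solid) and without bins near choroid plexus (open, dotted), with 95% counting intervals. Cldn5 falls outwards from 2.06 at 3 days and Tfrc lies below 0 near the lesion. The Slco1c1 and Ocln peaks at 0 to 250 µm are smaller in the setting without choroid plexus, for which zone and bands were drawn anew.

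Between the sections, the log2 ratio of zone over mirror area was lower at 28 days than at 3 days for Lsr (difference -1.55, 95% interval -2.50 to -0.61), Mfsd2a (-1.42, 95% interval -1.99 to -0.85), Cldn5 (-1.12, 95% interval -1.35 to -0.89), Slco1c1 (-0.63, 95% interval -0.96 to -0.31), Slc2a1 (-0.39, 95% interval -0.65 to -0.14) and Tjp1 (-0.30, 95% interval -0.43 to -0.18). It was higher for Slco1a4 (0.32, 95% interval 0.0042 to 0.63). The intervals for Ocln, Abcb1a and Tfrc spanned 0. The share of all genes with such differences was not counted. The endothelial list was also lower at 28 days, at 0.38 against 1.35 at 3 days, and its part was not tested. Time, animal and section cannot be told apart here.

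Other genes of the barrier were taken from lists by role and read beside the 17.5% and 16.5% of all genes that were at least 2-fold higher in the zone. Other junction genes had 5 of 10 genes at least 2-fold higher and 0 lower in the zone at 3 days (median log2 ratio 1.03), and 2 of 10 higher and 0 lower at 28 days (0.19). Gja4, the connexin 37 of arterial endothelium, stood at 2.17 (1.57 to 2.85) at 3 days, and F11r, a junctional adhesion molecule, at 2.28 (2.00 to 2.58) at 28 days, while Cldn12 was at -0.97 (-1.24 to -0.72) at 28 days. The list of other barrier transport genes, which also held the receptors Insr and Lrp1, the enzyme Ptgds and the proteoglycan Spock2, had 4 of 18 genes at least 2-fold higher and 0 lower in the zone at 3 days (median log2 ratio 0.61), and 6 of 18 higher and 1 lower at 28 days (0.63). The single gene lower by that fold at 28 days was Spock2 (-1.11, -1.19 to -1.02). The list was led at 3 days by the amino acid carrier Slc38a5 (1.41, 0.95 to 1.88) and the drug pumps Abcc4 (1.32, 0.93 to 1.72) and Abcg2 (1.21, 0.89 to 1.53), and at 28 days by Abcb1b (2.22, 1.72 to 2.77), which was not a vessel transcript here (log2 -0.66 in vessel bins on the opposite side). Genes of Wnt signalling, which induces the barrier, had 5 of 16 genes at least 2-fold higher and 1 lower in the zone at 3 days (median log2 ratio 0.74), and 4 of 16 higher and 1 lower at 28 days (0.32). The transcription factor Lef1 was lower in both sections (-1.40 and -1.18), and the receptor Lrp5 was higher (1.32 and 1.94). Of the Wnt targets, Apcdd1 was higher (1.37 and 1.25), while Axin2 was at -0.34 (-0.61 to -0.089) at 3 days and -0.21 (-0.43 to 0.00091) at 28 days. In vessel bins the intervals of Lef1 (0.085, 95% interval -0.81 to 1.03) and Axin2 (0.053, 95% interval -0.63 to 0.75) spanned 0 at 3 days, and at 28 days Lef1 was at -1.53, 95% interval -2.40 to -0.75. Genes of leak and vesicles had 7 of 10 genes at least 2-fold higher and 0 lower in the zone at 3 days (median log2 ratio 1.74), and 2 of 9 higher and 0 lower at 28 days (0.16). Beside them, the endothelial list stood at 1.35 and 0.38 in the same comparison, and its part was not tested. Of this leak list, Vegfa was at 0.089 (-0.14 to 0.31) at 3 days and -0.78 (-0.98 to -0.58) at 28 days. Caveolin-1, which coats the vesicles of transcytosis, stood at 2.26 (2.03 to 2.49) and 1.51 (1.23 to 1.79). Plvap, the diaphragm protein of fenestrated and leaky vessels, was at 23.6 against 12.3 CPM at 3 days (0.94, 0.54 to 1.34) and 8.94 against 8.26 CPM at 28 days (0.11, -0.40 to 0.63). Per endothelial UMI it was at -0.41 (95% interval -0.80 to -0.024) at 3 days and -0.27 (95% interval -0.76 to 0.23) at 28 days. Plvap was not higher in vessel bins than elsewhere at 3 days on the opposite side (-0.28, 95% interval -0.65 to 0.056), so its level here is not a measure of vessels alone. Several other named genes marked vessels little. Vessel over other bins on the opposite side at 28 days gave -0.044 for Cldn12, 0.14 for Spock2, 0.26 for Axin2 and 0.28 for Lef1. It gave 0.97 for F11r, 1.18 for Lrp5, 1.88 for Apcdd1 and 2.12 for Gja4. Of 537 F11r UMIs in the zone at 28 days, 63 lay in vessel bins.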

How the data were processed

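The authors prepared formalin-fixed sections with the mouse probe set 2.0 and made the count tables with Space Ranger 4.0.1, per the file headers, on genome build mm10, per the labels. The deposited counts are raw UMIs per gene and 16 µm bin, neither normalized nor replicate-pooled. Ly6c1 and Ly6c2 were not analysed here. Coordinates and sequences are from RefSeq GRCm38.p6. The number of probes per gene is not given in the sources used here, so levels are not ranked between genes.

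UMIs were summed over bins of at least 100 UMIs and scaled to CPM in Python 3.11.15 with scipy 1.17.1, numpy 2.4.6, matplotlib 3.10.9 and pandas 2.3.3. Ratios of CPM are log2 values with a pseudocount of 0.5 UMI and exact conditional binomial 95% intervals, and CPM have exact Poisson intervals. Ratios per endothelial UMI and differences between the sections have 95% intervals from a normal approximation on the log2 scale. The pair ratios of observed to expected bins are not log2 values. Genes with fewer than 20 UMIs over both areas were not compared. Tiles of 4 by 4 bins (64 µm) formed the lesion zone where the share of phagocyte genes (Laptm5, Cd52, Lgals3, Cd68, Ctsz, Lyz2), averaged over 5 by 5 tiles, passed the 99th percentile of the opposite side in patches of at least 25 tiles. These genes placed the zone and are no result. Of zone bins, 92.4% at 3 days and 86.6% at 28 days had a mirrored bin over tissue.

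The 10 genes, marker lists and comparisons were chosen with earlier results of these data known. The genes named were all 10 members, from each list of other barrier genes up to 3 of the highest and 3 of the lowest zone ratios among genes with at least 50 UMIs (the report gives the ones it turns on), and the 10 genes most concentrated in bins with at least 2 member UMIs, among genes with at least 200 UMIs there. The calculation of the ratio intervals was checked on simulated counts. These were drawn independently, as the intervals assume, so the check does not cover clumping of bins, the mirror line or variation between animals. Alternatives covered the zone, the mirror line, the depth minimum, the scaling, the vessel genes and choroid plexus. Those that left out choroid plexus also drew the zone, mirror area and bands anew from the remaining bins.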

Additional observations from a re-analysis of the deposited data

Results flagged for a closer look

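Slco1c1, the thyroid hormone and organic anion carrier, had a log2 ratio of lesion zone over mirror area of 0.28 at 3 days and -0.35 at 28 days, each by an interval that excluded 0. The counting interval of the difference, -0.63, was -0.96 to -0.31, but with 1 section per time the difference was not tested across animals. With bins within 4 bins of choroid plexus genes left out and the zone drawn anew, the values were 0.59 and -0.26. In vessel bins of the main setting they were 0.074 and -0.70. The opposite directions depended on the setting. Per mm2 both sections were below 0, at -0.34 and -0.64, with the mirror column 12 bins higher the 3 days value was -0.13, and with the zone at the 95th percentile the 28 days value was 0.18.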

How the results depend on the processing

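Log2 ratios are given throughout. Over the alternatives, 92 medians and shares stayed within the interval of the reported value, 25 left it and 1 whose interval excluded 0 changed sign. For a share this was the 95% interval. For a median it was the averaged 95% bounds of the middle gene or pair of genes, which is no 95% interval of the median. Of single genes' values, 659 stayed within the 95% interval, 157 left it and 14 whose interval excluded 0 changed sign. At 3 days, the vessel bin share of zone over mirror was 0.96 with a 95th percentile threshold, 0.90 with 3 by 3 tiles, 0.30 against the whole opposite side, 0.51 and 1.22 with the mirror column 12 bins lower and higher, and 0.32 and 1.21 with vessel bins of at least 1 and 3 UMIs. At 28 days it was -0.21 against the whole opposite side, -0.10 with the column lower, 0.40 with 3 UMIs and 0.28 in thinned bins. The 95th percentile moved the band medians to 0.22 and -0.13, turned Tjp1 there to -0.056 and -0.020 and Abcb1a to -0.16 at 28 days, and put Slco1c1 in the zone at 0.18 at 28 days. With the column higher, Slco1c1 was -0.13 at 3 days and the vessel bin median 0.67 at 28 days. Per mm2, the zone medians were 0.12 and 0.26, Ocln -0.15 and Slco1c1 -0.34 at 3 days. The zone median was 0.69 at 28 days against the whole opposite side. Per 100 endothelial UMIs at 3 days, Tjp1 was -0.52, Slc2a1 -0.44 and the median -0.60. These were taken over all bins of the areas but counted against CPM in vessel bins, so that bins and measure both differ. Thinning to 300 UMIs gave vessel bin values at 3 days of -0.047 (Slc2a1), 0.21 (Tfrc) and 0.049 (median of the 7 genes left, 0.074 as sequenced), and for vessel over other bins -0.074 (Tfrc, 3 days) and 1.36 (median, 28 days). That median was 1.19 and 1.0005 with 1 UMI, 2.16 and 1.89 with 3 UMIs, and 2.09 on the injured side at 28 days. Chosen after seeing the data, leaving out bins with choroid plexus genes put Slco1c1 in the 28 days band at -0.15, and leaving out bins near them put it at -0.21 and the median at -0.12. The cause was not tested. No paired analysis was possible because each group has 1 section. Depth limits the genes with few UMIs, such as Lsr, Mfsd2a and Ocln, and the mirror area is only approximate anatomy.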
